A study of Dipsacus asperoides with 9 samples.

Results

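The 7 unigenes described here are named for repressors of the jasmonate response and for the transcription factor that such repressors bind. A unigene is a gene-level cluster of transcripts from a de novo assembly. Of the 65535 unigenes in the table analysed here, 4 carry the name of a TIFY protein and 3 that of the bHLH factor MYC2. They were picked by identifier, with their values already known, so their levels and fold changes are given as a description and no p value is attached to them. In all, 18 unigenes of the table bear a TIFY, JAZ, ZIM-type GATA or MYC2 name, and the other 11 are described further below. Names are those of the best protein match in other plants, as the authors listed it.

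The study followed the root of Dipsacus asperoides, a medicinal herb rich in the triterpenoid saponin asperosaponin VI, as it developed. All plants were wild type, and the labels name no treatment of the sequenced roots. Roots were taken at the one-leaf seedling stage (L1), at the two-leaf seedling stage (L2) and from plants grown for 7 months (M7), with 3 biological replicates per stage and 9 libraries in all. Whether a replicate was 1 plant or a pool is not given in the sources used here, and stage and plant age change together.

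Jasmonate is a lipid-derived hormone of wounding, defence and development that also drives the synthesis of many specialised metabolites. In Arabidopsis, JAZ proteins, members of the TIFY family, hold MYC2 inactive by recruiting the co-repressors NINJA and TOPLESS. When jasmonoyl-isoleucine accumulates, the F-box protein COI1 binds JAZ proteins and marks them for destruction, and the freed MYC2 switches on its targets. Among these targets are the JAZ genes themselves, so that JAZ transcript is also a readout of the pathway in that species.

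Short designed sequences for this module come from the study's quantitative PCR primers, shown because they are the TIFY and MYC2 sequences of this species at hand. The sources used here do not say which unigenes they amplify. Each is written 5′ to 3′ in lower case, forward before reverse.
DaTIFY11A forward: ttccgcctttgagaacacttgat
DaTIFY11A reverse: aaaaggcgccggagaagtctaat
DaTIFY11B forward: attcgacttttccggcaactttc
DaTIFY11B reverse: ttatcaccgacagccaacacact
DaMYC2 forward: ttccaccatacctcatccatcag
DaMYC2 reverse: cagcctaaaaccgaaccacct

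A forward primer of one TIFY paralog and a reverse primer of the other lie on similar sequence. The DaTIFY11B forward primer and the reverse complement of the DaTIFY11A reverse primer line up over all 23 bases, with 18 identical positions, in capitals, and 5 that differ, in lower case.
DaTIFY11B forward primer: ATTcGACTTtTCCGGCaaCTTTc
DaTIFY11A reverse primer, reverse complement: ATTaGACTTcTCCGGCgcCTTTt
Where TIFY copies are near-identical, the counting may split reads between unigenes. Sequences of the 7 unigenes were not analysed here.

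Levels are given in FPKM, the number of sequenced fragments scaled by transcript length and by the total mapped, which allows levels of different unigenes to be set side by side. FPKM carries no read count, so the depth behind a value is unknown. The libraries differed in breadth. The number of unigenes at 1 FPKM or more was 26048 to 28468 per L1 library, 32849 to 34173 per L2 library and 13430 to 18794 per M7 library, lowest for M7 replicate 1. The 100 most expressed unigenes held 48.1% of all FPKM in that library, against 34.9% to 35.3% in the other M7 libraries. The median log2 fold change over the 34925 unigenes tested was 0.32 for L2 against L1, -0.48 for M7 against L1 and -1.07 for M7 against L2, so that changes in M7 are read against a general shift. Summed FPKM of 22 photosynthesis markers was 175 to 209.8 in L1 and 59.4 to 69.6 in L2, against 1358 to 3258 in M7. A single chlorophyll a-b binding unigene, TRINITY_DN22710_c0_g1, held 1196 to 2913 FPKM of the M7 sums, and the other 21 summed to 162 to 197 in L1 and 42.0 to 48.6 in L2, against 161 to 346 in M7. Of the 22, 3 were up-regulated and 12 down-regulated in M7 against L1, beside 9.37% and 35.1% of all tested unigenes. The 22 root markers summed to 107 to 173 FPKM in M7, 219.6 to 230.8 in L1 and 241 to 249 in L2. In M7 against L1, 1 of them was up-regulated and 15 down-regulated. The 1 up-regulated, a high affinity nitrate transporter 2.5, had 5.41 ± 0.885 FPKM in L1 and 45.1 ± 11.8 in M7. Under 0.1 FPKM in all M7 libraries were 10 of the 22, most of which were low in seedlings too. The share of all unigenes under that level was not counted. The part of these shifts in the results was not tested. In bulk roots, fewer cells of a type and less RNA per cell cannot be told apart.

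The most abundant repressor in seedling roots was TIFY 5A-like TRINITY_DN31583_c0_g1. In Arabidopsis, TIFY 5A is JAZ8, a repressor with its own EAR motif and without the canonical degron, which resists destruction by jasmonate. Its level was 2415, 2498 and 1954 FPKM in the L1 libraries. It was 652, 611 and 675 FPKM in L2, and 4.99, 43.0 and 64.0 FPKM in M7. The 3 stages formed separate ranges, in the order L1, L2, M7, and no library of a stage reached into the next. Means of L1, L2 and M7 were 2289 ± 293, 646 ± 32.5 and 37.3 ± 29.9 FPKM (SD, n = 3). The L1 mean was 3.54 times the L2 mean and 61.3 times the M7 mean. In L1, this unigene stood at or above 99.96% of the tested unigenes by mean FPKM, and in M7 still at or above 93.8%. The spread in M7 was wide, with a coefficient of variation of 80.1%, and its lowest library was replicate 1. Without that library the M7 mean was 53.5 FPKM. On log2(FPKM + 1), the difference was -1.82 (SE 0.76) in L2 against L1 and -6.46 (SE 0.76) in M7 against L1.

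The second TIFY 5A-like unigene, TRINITY_DN27771_c0_g1, has the same best match in Coffea arabica but another pattern. Its level was 92.4, 84.5 and 77.1 FPKM in L1. It was 7.75, 7.25 and 7.94 FPKM in L2, and 13.5, 102 and 37.9 FPKM in M7. The L2 libraries lay below all others, while the M7 libraries spanned the L1 range, so that L1 and M7 cannot be put in order. The L1 mean of 84.7 ± 7.61 FPKM was 11.1 times the L2 mean of 7.65 ± 0.356 FPKM (SD, n = 3). The M7 mean was 51.2 ± 45.8 FPKM, with replicate 1 lowest, and 6.70 times the L2 mean. Without M7 replicate 2, the highest library, it was 25.7 FPKM and 3.36 times the L2 mean. The log2 difference was -3.31 (SE 0.60) in L2 against L1 and 2.17 (SE 0.60) in M7 against L2, where it was 1.46 without M7 replicate 2. In M7 against L1 it was -1.14 (SE 0.60), and it ranged from -1.85 without M7 replicate 2 to -0.43 without M7 replicate 1. The ratio of the first TIFY 5A-like unigene to this one, in FPKM, was 25.3 to 29.6 in L1 and 84.2 to 85.1 in L2, but 0.369 to 1.69 in M7. The pair was thus dominated by 1 copy in seedlings and of the same order of level in M7.

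TIFY 10B, TRINITY_DN3331_c0_g1, was the second repressor of seedling roots. Its best match is TIFY 10B of Nelumbo nucifera, while the study's hormone list names it TIFY 11B from another protein database, so the paralog it stands for is uncertain. In Arabidopsis, TIFY 10B is JAZ2 and TIFY 11B is JAZ6, both repressors of MYC2. Its level was 569.5, 528.6 and 521 FPKM in L1. It was 209.1, 200.1 and 203.7 FPKM in L2, and 12.2, 50.6 and 65.2 FPKM in M7. Again the stages did not overlap and followed the order L1, L2, M7. Means were 539.8 ± 26.0, 204.3 ± 4.54 and 42.7 ± 27.4 FPKM (SD, n = 3), so that L1 was 2.64 times L2 and 12.6 times M7. The log2 difference was -1.40 (SE 0.53) in L2 against L1, -3.92 (SE 0.53) in M7 against L1 and -2.53 (SE 0.53) in M7 against L2. M7 replicate 1 was again the lowest library, and without it the M7 mean was 57.9 FPKM.

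TIFY 6B-like TRINITY_DN320_c0_g1 ran the other way. In Arabidopsis, TIFY 6B is JAZ3, a repressor that binds MYC2. Its level was 163.6, 167.9 and 88.8 FPKM in L1. It was 110.1, 113.6 and 112.1 FPKM in L2, and 551.2, 349.8 and 307.7 FPKM in M7. Every M7 library lay above every seedling library, and the L2 libraries fell within the L1 range. The M7 mean of 402.9 ± 130.1 FPKM was 2.88 times the L1 mean of 140.1 ± 44.5 and 3.60 times the L2 mean of 111.9 ± 1.74 (SD, n = 3). M7 replicate 1, the lowest M7 library for the other 3 TIFY unigenes, was the highest here. Without it the M7 mean was 329 FPKM. The log2 difference was 1.53 (SE 0.31) in M7 against L1, 1.79 (SE 0.31) in M7 against L2 and -0.27 (SE 0.31) in L2 against L1.

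**Figure D1:**
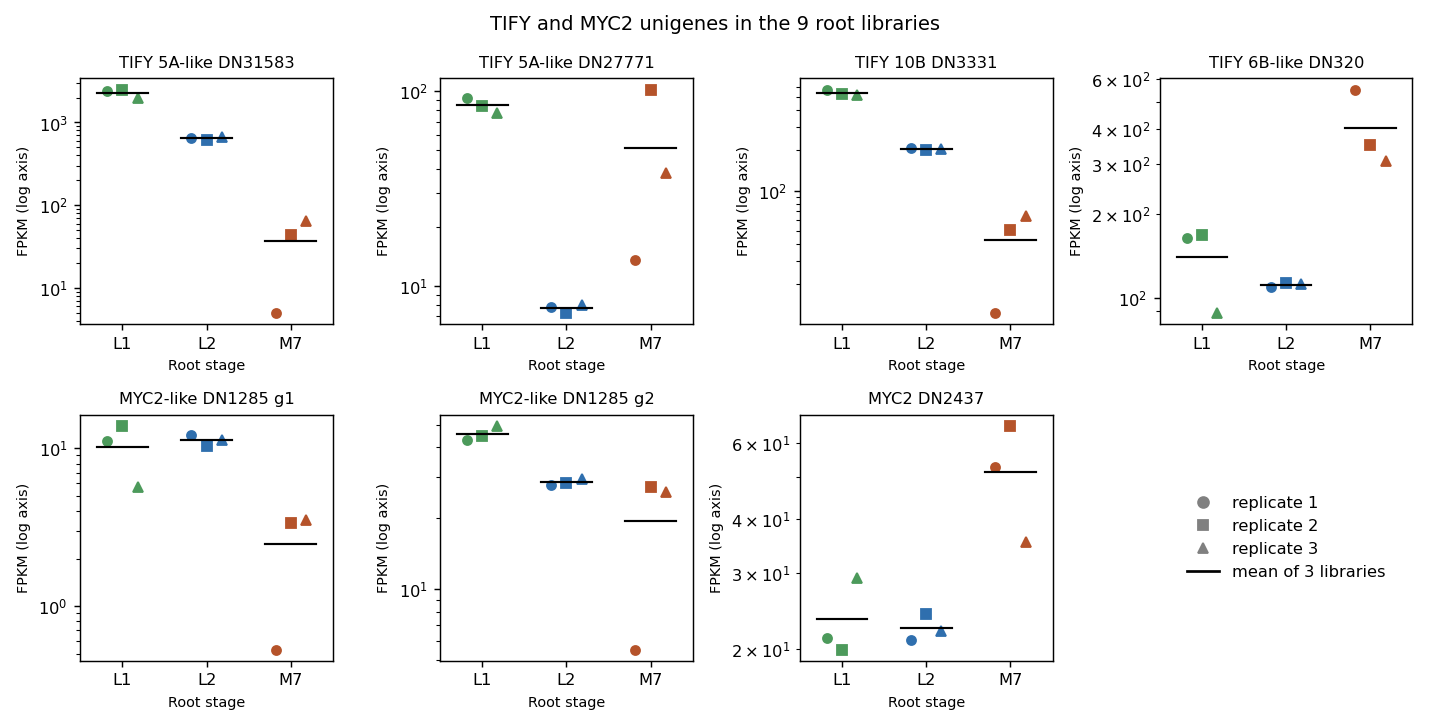
Level of each TIFY and MYC2 unigene in the 9 root libraries, in FPKM on a log axis that differs between panels. Symbols are single libraries by replicate number and bars are means of 3 libraries. TIFY 5A-like DN31583 steps down from 2289 to 646 to 37.3 FPKM, while TIFY 6B-like DN320 is highest in M7, and M7 replicate 1 is the lowest M7 library in 5 of the 7 panels.

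The make-up of the summed TIFY level turned over between seedling and M7 roots. Together, the 4 TIFY unigenes summed to 3053 ± 358, 970.2 ± 34.4 and 534 ± 54.5 FPKM at L1, L2 and M7 (SD, n = 3), with no overlap between stages. Under median ratio rescaling the sums were 2691 ± 63.1, 731 ± 25.2 and 831 ± 502, with M7 replicate 1, at 1410, above every L2 library and M7 replicates 2 and 3 below them. L1 is thus above both other stages, and no order is given for L2 and M7. TIFY 5A-like DN31583 made up 74.9% ± 1.15 of this sum in L1 and 66.6% ± 1.01 in L2, but 7.41% ± 6.32 in M7. TIFY 6B-like DN320 made up 4.51% ± 0.996 in L1, 11.5% ± 0.552 in L2 and 74.5% ± 17.5 in M7. Within M7 its share was 94.7% in replicate 1, 64.1% in replicate 2 and 64.8% in replicate 3. DN320 thus held most of the sum in each M7 library. TIFY 10B DN3331 held 17.8% ± 1.82 in L1, 21.1% ± 0.591 in L2 and 8.37% ± 5.87 in M7. Shares within a library do not depend on how libraries are scaled against each other by a single factor. The ratio of DN320 to DN3331 in FPKM was 0.170 to 0.318 in L1 and 0.526 to 0.568 in L2, but 4.72 to 45.0 in M7.

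**Figure D2:**
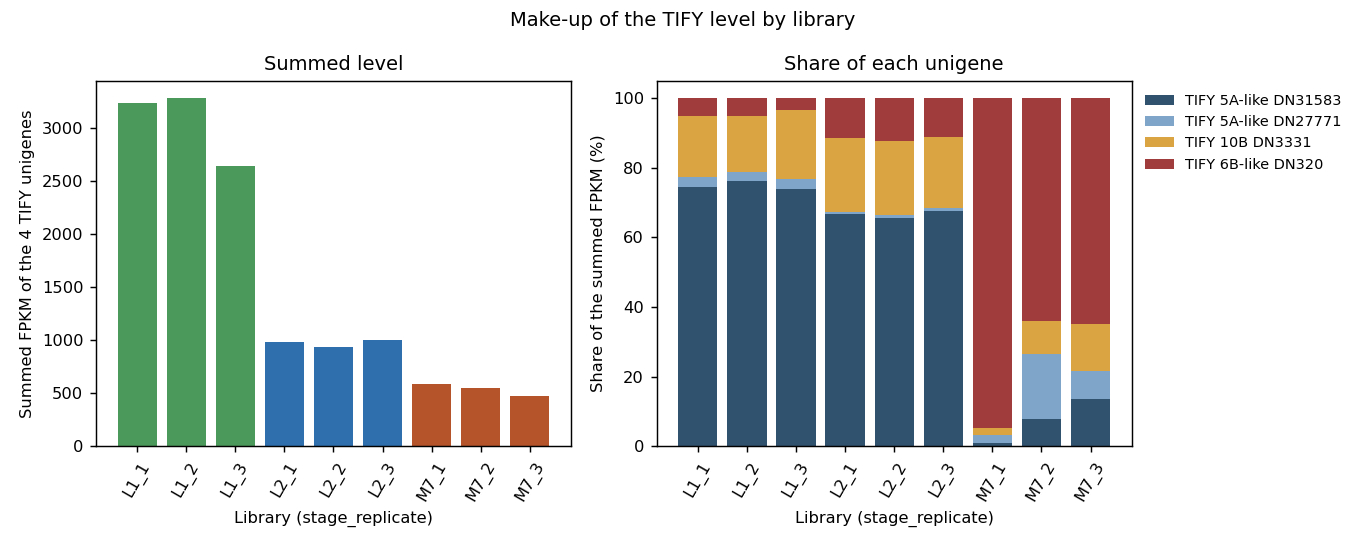
Summed FPKM of the 4 TIFY unigenes in each library (left) and the percentage of that sum held by each unigene (right), with 3 libraries per stage. The sum lies between 2641 and 3279 FPKM for L1, between 932 and 999 for L2 and between 475 and 582 for M7, and TIFY 6B-like DN320 holds 64.1% to 94.7% of it in M7.

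Each unigene named for MYC2, the factor the repressors bind, had at most 65.6 FPKM in any library. The more abundant MYC2-like unigene of the seedlings, TRINITY_DN1285_c0_g2, had 43.1, 44.7 and 49.2 FPKM in L1. It had 27.7, 28.1 and 29.5 FPKM in L2, and 5.53, 27.1 and 25.8 FPKM in M7. L1 lay above both other stages. M7 lay just below L2 in 2 of its libraries and far below in replicate 1. Means were 45.7 ± 3.14, 28.4 ± 0.930 and 19.5 ± 12.1 FPKM (SD, n = 3), and without M7 replicate 1 the M7 mean was 26.5 FPKM. The log2 difference was -0.66 (SE 0.51) in L2 against L1 and -1.45 (SE 0.51) in M7 against L1. In M7 against L2 it was -0.79 (SE 0.51) and became 0.04 under median ratio rescaling, so no direction is given for that pair of stages.

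TRINITY_DN1285_c0_g1 comes from the same assembly component, with the same best match in Carica papaya, and reads may have been split between both. Its level was 11.04, 13.8 and 5.66 FPKM in L1. It was 12.2, 10.3 and 11.2 FPKM in L2, and 0.53, 3.35 and 3.51 FPKM in M7. The seedling stages overlapped, and every M7 library lay below them. Means of L1, L2 and M7 were 10.2 ± 4.13, 11.2 ± 0.950 and 2.46 ± 1.68 FPKM (SD, n = 3). The log2 difference was -1.77 (SE 0.46) in M7 against L1 and -1.97 (SE 0.46) in M7 against L2. These were -0.79 and -0.73 under quantile normalization, and -1.01 and -1.14 with a pseudocount of 5. Summing both DN1285 unigenes, which does not depend on such a split, gave 55.8 ± 2.32 FPKM for L1 and 39.6 ± 1.17 FPKM for L2. It gave 21.9 ± 13.8 FPKM for M7, where replicate 1 had 6.06 FPKM and replicates 2 and 3 had 30.5 and 29.3. L1 lay above both other stages. Under median ratio rescaling M7 replicates 2 and 3, at 31.0 and 32.6, lay just above the L2 libraries, at 28.9 to 30.6, so no direction is given for M7 against L2 here either.

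TRINITY_DN2437_c0_g3 was named MYC2 isoform X1 from Vitis vinifera, but the study's list of transcription factors names it bHLH66 from another protein database. bHLH66 belongs to another branch of the bHLH family, so this unigene may not be a MYC2. Its level was 21.2, 19.9 and 29.1 FPKM in L1. It was 21.0, 24.1 and 22.04 FPKM in L2, and 52.8, 65.6 and 35.4 FPKM in M7. The seedling stages overlapped and M7 lay above both. The M7 mean of 51.3 ± 15.1 FPKM was 2.19 times that of L1 (23.4 ± 5.0) and 2.29 times that of L2 (22.4 ± 1.59; SD, n = 3). The log2 difference was 1.08 (SE 0.27) in M7 against L1 and 1.12 (SE 0.27) in M7 against L2. The MYC2 names thus covered opposite patterns, lower in M7 than in L1 for both DN1285 unigenes and higher for DN2437.

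As a description, the thresholds that were applied to all unigenes were also read for the members. An adjusted p under 0.05 in limma was met in L2 against L1 by 1 of the 7, TIFY 5A-like DN27771, which was lower, against 40.9% of all tested unigenes with 26.1% higher and 14.8% lower. In M7 against L1 it was met by 6, of which 2 were higher and 4 lower, against 44.5% of all, with 9.37% higher and 35.1% lower. In M7 against L2 it was met by 6, of which 3 were higher and 3 lower, against 60.3% of all, with 7.71% higher and 52.6% lower. The thresholds for differentially expressed genes (DEGs) also asked for a log2 fold change beyond 2 in size and, in the highest stage, a mean over 30 FPKM. In L2 against L1 they were met by 1 member, which was lower (1.24% of all, 0.868% higher and 0.372% lower). In M7 against L1 they were met by 2, both lower (5.14% of all, 1.41% higher and 3.73% lower). In M7 against L2 they were met by 3, of which 1 was higher and 2 lower (5.15% of all, 1.01% higher and 4.14% lower). Libraries of both stages did not overlap for 4, 6 and 7 of the 7 members in these comparisons, against 60.9%, 49% and 68.1% of all. Since the members were chosen with these values known, nothing is read from their counts.

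The L2 count depends on the fit and on the scaling. It was 4 of 7, with DN31583, DN3331 and DN1285_c0_g2 added as lower, when only L1 and L2 were fitted, without M7 replicate 1, under median ratio rescaling and under quantile normalization. With a pseudocount of 5 it was 3, and without M7 replicate 3 it was 2. In the fit of L1 and L2 alone, the standard error for DN31583 was 0.14 in place of 0.76, and for DN3331 0.096 in place of 0.53. The values of the seedling libraries were the same in both fits. In M7 against L1, the count was 4 without L1 replicate 2 or with only those stages fitted, and at most 7, without M7 replicate 2. In M7 against L2 it was 5 to 6. It was 5 under quantile normalization, without DN1285_c0_g1, and with only those stages fitted, without DN27771. The members meeting the DEG thresholds also changed. TIFY 10B DN3331 did not meet them in M7 against L2 under median ratio rescaling (-1.66) or without M7 replicate 1 (-1.81). TIFY 5A-like DN27771 did not meet them there without M7 replicate 2, with a pseudocount of 5 or with only those stages fitted. TIFY 6B-like DN320 met them under median ratio rescaling, at 2.19 in M7 against L1 and 2.68 against L2.

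**Figure D3:**
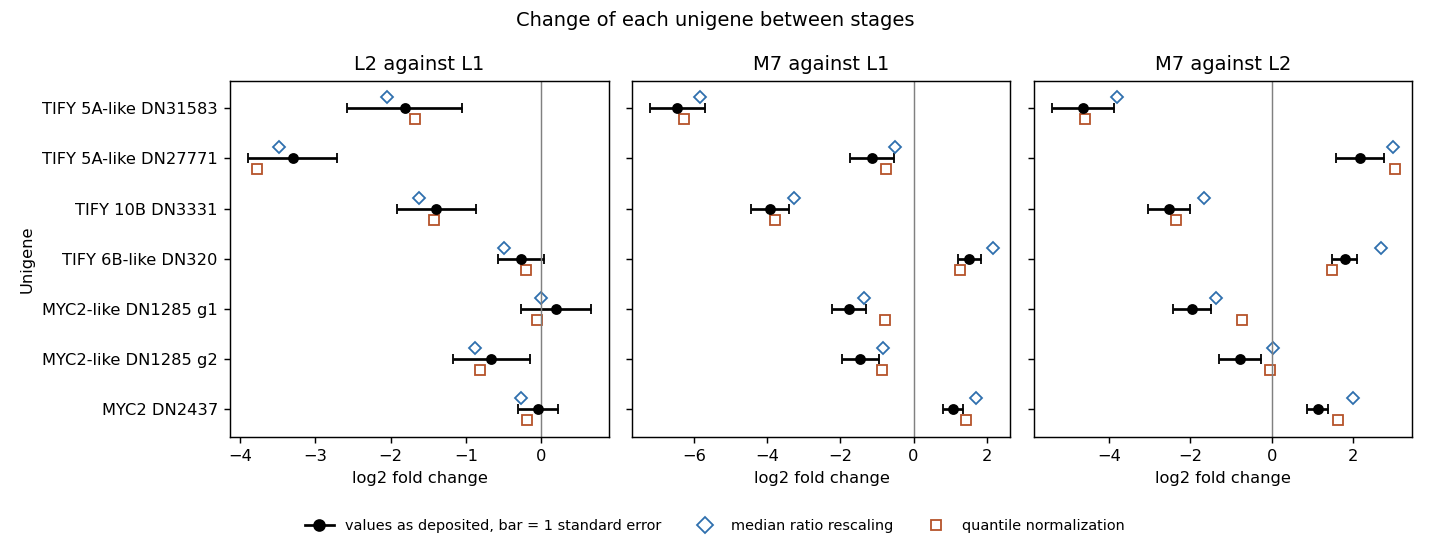
log2 fold change of each unigene between stages from limma on log2(FPKM + 1), as deposited (filled circles, bars are 1 standard error) and after median ratio rescaling or quantile normalization (open symbols). DN31583 and DN3331 are below 0 and DN320 and DN2437 above 0 in M7 against L1 under all 3 scalings, while DN1285_c0_g2 (g2) sits at about 0 in M7 against L2 once libraries are rescaled.

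Across the 9 libraries, levels of DN31583 and DN3331 followed each other closely, with a Pearson r of 0.996 on log2(FPKM + 1), given as a description. They ran against DN320, with r of -0.87 for DN31583 and -0.85 for DN3331. The other TIFY 5A-like unigene, DN27771, followed none of the other 6, with r from -0.05 to 0.45. The DN1285 pair had r of 0.80 between them, and DN320 and DN2437 also had r of 0.80. All points share the same 9 libraries in 3 stages, so that r mostly reflects stage.

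Among 4453 other unigenes with a description and over 30 FPKM in the mean of some stage, the closest in pattern to each member were found in the same way. Closest to DN31583 were a CTP synthase-like unigene, TRINITY_DN105_c0_g1 (r of 0.997), and a DNA oxidative demethylase, TRINITY_DN25853_c0_g1 (0.995). Closest to DN3331 were a squamosa promoter-binding-like protein, TRINITY_DN10278_c0_g2 (0.996), an uncharacterized protein, TRINITY_DN36_c0_g1 (0.995), and NAC domain-containing protein 83-like TRINITY_DN1218_c0_g2 (0.994). The dip of DN27771 in L2 was matched by a probable 2-oxoglutarate-dependent dioxygenase, TRINITY_DN30311_c0_g1 (0.988), named after At5g05600 and with means of 32.5, 4.83 and 23.8 FPKM for L1, L2 and M7. After it came a small ubiquitin-related modifier 1-like unigene, TRINITY_DN2066_c0_g1 (0.956), and a probable mannitol dehydrogenase, TRINITY_DN2415_c0_g1 (0.949). DN320 was followed by a hypothetical protein, TRINITY_DN2593_c0_g1 (0.985), and by a 14-3-3-like protein, TRINITY_DN10639_c1_g1 (0.981). DN1285_c0_g1 was followed by an uncharacterized protein, TRINITY_DN1758_c1_g1 (0.993), and by the amino acid transporter AVT1C TRINITY_DN2238_c0_g1 (0.989). DN1285_c0_g2 was followed by a putative Clp endopeptidase, TRINITY_DN32622_c0_g1 (0.996), and by an SNF1-related kinase subunit gamma-1, TRINITY_DN3554_c0_g2 (0.993). DN2437 was followed by an isoflavone 3'-hydroxylase-like unigene, TRINITY_DN19068_c0_g4 (0.981), and by a root ferredoxin R-B1-like unigene, TRINITY_DN36494_c0_g1 (0.968). At5g05600 of Arabidopsis is a jasmonate-induced oxygenase that hydroxylates jasmonic acid.

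The other 9 TIFY or ZIM-type names, which were tested with limma and Benjamini-Hochberg adjustment, had stage means of at most 23.2 FPKM. In M7 against L1, 1 was up-regulated, 6 were down-regulated and 2 did not pass, beside 9.37% up and 35.1% down of all tested unigenes. Their median log2 fold change was -1.33, against -0.48 over all tested unigenes. All 6 that were down-regulated had their best match in Caryophyllales or Quercus suber and were listed at 0 in every M7 library. They included TIFY 7-like TRINITY_DN24504_c0_g1, at 15.3 ± 4.11 FPKM in L1 and 15.9 ± 1.35 in L2 (SD, n = 3; adjusted p = 7.19e-06), and JAZ-like TRINITY_DN14583_c0_g1, at 16.6 ± 7.19 and 2.90 ± 1.05 FPKM (adjusted p = 2.73e-05). The others were JAZ-like TRINITY_DN14327_c0_g1, TIFY 4B TRINITY_DN22170_c0_g1, GATA 24-like TRINITY_DN2556_c3_g1 and GATA 28 TRINITY_DN110037_c0_g1, with L1 means of 7.61, 3.90, 1.5 and 1.55 FPKM. The same held for both other MYC2-like unigenes, TRINITY_DN10407_c0_g3 and TRINITY_DN18186_c0_g1, matched to Chenopodium quinoa, at 2.82 and 1.94 FPKM in L1 and listed at 0 in M7. TIFY 4B, GATA 24-like, GATA 28 and TRINITY_DN18186_c0_g1 reached 1 FPKM only in the L1 libraries. They passed the filter through L1 alone and were listed at 0 in M7, so only a lower call was possible there.

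That absence in M7 was shared by most unigenes with such matches. Of the tested unigenes matched to Caryophyllales, 96.1% of 2253 were under 0.1 FPKM in all M7 libraries, as were 81.1% of 2069 matched to Quercus suber and 92.8% of 223 matched to Hordeum vulgare. The share of all tested unigenes under that level was not counted, and the groups were formed after the data were seen. None of the 7 members has a match in these groups. Where the RNA of these unigenes came from was not tested.

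The remaining 3 TIFY or ZIM-type unigenes were steady or low. Jasmonate ZIM-domain protein 7b TRINITY_DN17395_c0_g2 had 19.0 ± 3.90, 18.2 ± 0.836 and 23.2 ± 5.93 FPKM at L1, L2 and M7 (SD, n = 3), and did not pass in any comparison. GATA 25-like TRINITY_DN1935_c0_g2 had 19.3 ± 0.641, 13.5 ± 1.63 and 16.2 ± 3.81 FPKM, and did not pass either. A second TIFY 6B-like unigene, TRINITY_DN14471_c0_g1, had 0.453 ± 0.270, 0.343 ± 0.110 and 2.84 ± 2.35 FPKM. It was up-regulated in M7 against L1 (log2 fold change 1.25, SE 0.38, limma adjusted p = 0.0258), from a level of under 1 FPKM. It reached 1 FPKM only in the M7 libraries and passed the filter through them. Only a higher call in M7 was therefore possible, and nothing is read from its direction. The call was lost without L1 replicate 2 or L1 replicate 3, with an adjusted p of up to 0.0874.

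The wider pathway was read from unigene names by role, from synthesis to response, with the members left out. Of 144 unigenes so named, 106 were tested. In L2 against L1, 11 were up-regulated and 36 down-regulated, beside 26.1% and 14.8% of all tested unigenes. In M7 against L2 the counts were 9 and 61, beside 7.71% and 52.6% of all, and in M7 against L1 they were 9 and 57. Of all tested unigenes, 9.37% were up-regulated and 35.1% down-regulated in M7 against L1. These shares include the match groups and are to be read beside the counts by role that follow, for values as deposited. Some of the unigenes counted reached 1 FPKM in libraries of only 1 stage, so the filter set the direction of their calls against that stage. No share is given here for unigenes outside those groups. Under quantile normalization the split over all tested unigenes also changes, as given in the closing section. Outside these 3 match groups, 65 were left, with 8 up and 12 down, 8 up and 23 down, and 8 up and 29 down. Their median log2 fold changes were 0.15, -0.63 and -0.68, against 0.32, -0.48 and -1.07 over all tested unigenes. Over the 30380 tested unigenes outside the match groups the medians were 0.36, -0.42 and -1.04. The split by direction depends on scaling. For the 106 in M7 against L2 it was 20 up and 50 down under median ratio rescaling and 30 up and 22 down under quantile normalization, and in M7 against L1 the latter gave 19 up and 47 down.

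Of 37 unigenes of jasmonate synthesis, 6 were up-regulated in M7 against L1 and 18 down-regulated, and 6 and 6 of the 22 outside those match groups. Under quantile normalization the 37 split into 11 up and 15 down. The names taken include 12-oxophytodienoate reductase 11, found also among the 6 up-regulated, and need not all act in jasmonate synthesis. Allene oxide cyclases, which form a precursor of jasmonate, had the highest M7 means of those named here. TRINITY_DN10456_c0_g1 had 5.65 ± 1.85 FPKM at L1 and 376 ± 218 FPKM at M7 (log2 difference 5.64, SE 0.51, limma adjusted p = 5.13e-05). TRINITY_DN35460_c0_g1 had 7.97 ± 4.82 and 258 ± 113 FPKM (4.94, SE 0.53, adjusted p = 0.000125). Both calls held in all 9 fits that left out 1 library. 12-Oxophytodienoate reductase 3 TRINITY_DN3604_c0_g1, which reduces the next intermediate, had 70.6 ± 9.49, 28.7 ± 2.87 and 171 ± 90.7 FPKM at L1, L2 and M7 (1.15, SE 0.35, adjusted p = 0.0261). Its call in M7 against L1 was lost without any 1 of the L1 libraries, with an adjusted p of up to 0.0725. A 13S-lipoxygenase, TRINITY_DN132_c0_g1, had 89.1 ± 28.6 and 149 ± 81.8 FPKM and did not pass (limma adjusted p = 0.313). It passed without M7 replicate 2, with an adjusted p of 0.0196. So in M7 the higher allene oxide cyclases stood beside lower DN31583 and DN3331 and higher DN320.

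Of 14 unigenes listed by name for jasmonate breakdown, 1 was up-regulated and 7 down-regulated in M7 against L1. Outside the match groups it was 1 and 1 of 7. The names taken were cytochrome P450 94 and IAA-amino acid hydrolase ILR1, which need not all act on jasmonate. The 1 up-regulated was a cytochrome P450 94A2-like unigene (log2 difference 1.29, SE 0.46, limma adjusted p = 0.0498). Under quantile normalization the 14 split into 4 up and 5 down. A cytochrome P450 94C1-like unigene, TRINITY_DN14874_c0_g1, whose Arabidopsis namesake oxidises jasmonoyl-isoleucine, had 271 ± 195, 166 ± 2.5 and 13.8 ± 8.27 FPKM at L1, L2 and M7 (log2 difference -4.05, SE 0.73, limma adjusted p = 0.00209). Its L1 libraries ran from 70.6 to 460.7 FPKM, and its best match is in Quercus suber. The IAA-amino acid hydrolase ILR1-like 5 TRINITY_DN30519_c0_g1 had 37.4 ± 20.9, 24.5 ± 2.32 and 9.97 ± 7.30 FPKM (-1.90, SE 0.52, adjusted p = 0.0177 in M7 against L1). That call was lost without L1 replicate 3, with an adjusted p of 0.0556. ILR1-like TRINITY_DN21323_c0_g1 had 9.53 ± 1.07, 11.2 ± 0.566 and 30.6 ± 21.0 FPKM and did not pass (limma adjusted p = 0.123). Both unigenes that bear the name of the enzyme forming jasmonoyl-isoleucine or methyl jasmonate were too low to be tested.

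The words used found 0 unigenes named for the receptor COI1 in the table, which holds only part of the assembly. Its ligase partners were therefore read, 9 of which were tested. In M7 against L1, 0 were up-regulated and 2 down-regulated by limma at an adjusted p under 0.05, and 0 and 3 at an unadjusted p under 0.05. The scaffold cullin-1 TRINITY_DN3274_c0_g1 had 186 ± 41.2, 208.6 ± 2.65 and 39.6 ± 27.5 FPKM (log2 difference -2.58, SE 0.65, adjusted p = 0.0115). The adaptor SKP1-like 1B TRINITY_DN17210_c0_g2 had 180.2 ± 64.5, 119 ± 4.90 and 241 ± 11.8 FPKM. It did not pass in M7 against L1 (limma adjusted p = 0.157) and was up-regulated in M7 against L2 (1.02, SE 0.24, adjusted p = 0.00682). Without L1 replicate 3 it also passed in M7 against L1, with an adjusted p of 0.00296. RING-box 1a had 2 such unigenes, TRINITY_DN10343_c0_g1 and TRINITY_DN10343_c0_g5. They had 77.5 ± 14.8 and 60.1 ± 14.3 FPKM in L1, 65.9 ± 2.98 and 30.7 ± 2.37 in L2, and 92.0 ± 10.97 and 79.9 ± 23.9 in M7. In M7 against L2, cullin-1 was down-regulated (-2.77, SE 0.65, limma adjusted p = 0.00607), so that it and SKP1-like 1B, which both also serve other F-box proteins, moved in opposite directions.

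Of 21 co-repressor unigenes, 0 were up-regulated and 13 down-regulated by limma in M7 against L1, beside 9.37% and 35.1% of all tested unigenes, with a median log2 fold change of -1.16 against -0.48 over all tested unigenes. At an unadjusted p under 0.05 the counts were again 0 and 13. Among the 19 outside the match groups, 0 were up and 11 down, with the same counts at an unadjusted p under 0.05. The split stayed mostly downward under both scalings, with 0 up and 12 down under median ratio rescaling and 1 up and 10 down under quantile normalization. Topless-related protein 4 TRINITY_DN21777_c0_g2 and ninja-family AFP3-like TRINITY_DN20745_c0_g2 reached 1 FPKM only in the L1 libraries. So did topless-related protein 4-like TRINITY_DN21397_c0_g5 and TRINITY_DN113760_c0_g1, matched to Chenopodium quinoa. For these the filter left only a lower call in M7 against L1 possible, so nothing is read from their direction. Topless-related protein 1-like TRINITY_DN11148_c0_g1 had 36.0 ± 10.9, 51.9 ± 2.58 and 12.6 ± 7.27 FPKM (-1.60, SE 0.47, adjusted p = 0.0243 in M7 against L1). Topless-related protein 3 TRINITY_DN2064_c0_g1 had 41.1 ± 1.36, 35.2 ± 0.460 and 19.9 ± 8.23 FPKM (-1.10, SE 0.31, limma adjusted p = 0.0203). Both calls were lost without L1 replicate 1 and without L1 replicate 2, with an adjusted p of up to 0.0871 and 0.0593. Topless-related protein 4-like TRINITY_DN12614_c0_g1 had 46.1 ± 19.8, 49.0 ± 4.50 and 21.99 ± 13.8 FPKM and did not pass (limma adjusted p = 0.145). TOPLESS proteins serve many repressors besides JAZ. The list was taken by name and also holds ninja-family proteins named MODD, AFP1-like and AFP3-like, which need not act with JAZ.

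Of the co-activators that MYC2 recruits, the Mediator subunit MED25 TRINITY_DN22448_c0_g1 had 32.9 ± 3.20, 37.5 ± 2.20 and 20.3 ± 23.4 FPKM and did not pass in M7 against L1 (limma adjusted p = 0.165). Its M7 libraries ran from 4.89 to 47.2 FPKM, and without M7 replicate 2 it passed with an adjusted p of 0.000592. The 1 tested unigene named for the bHLH repressors of the JAM group was down-regulated in each comparison, also from a match group. It reached 1 FPKM only in the L1 libraries, so against L1 only a lower call was possible. Of 11 response genes, such as proteinase inhibitors and jasmonate-induced proteins, 1 was up-regulated and 8 down-regulated in M7 against L1, and 0 and 3 of the 4 outside the match groups, also at an unadjusted p under 0.05. None had a stage mean over 30 FPKM. The 3 down-regulated outside the match groups were listed at 0 in every M7 library, where most unigenes of those groups were under 0.1 FPKM. Of these 3, 1 has no species in its name, and another shares an assembly component with a unigene matched to Chenopodium quinoa.

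**Figure D4:**
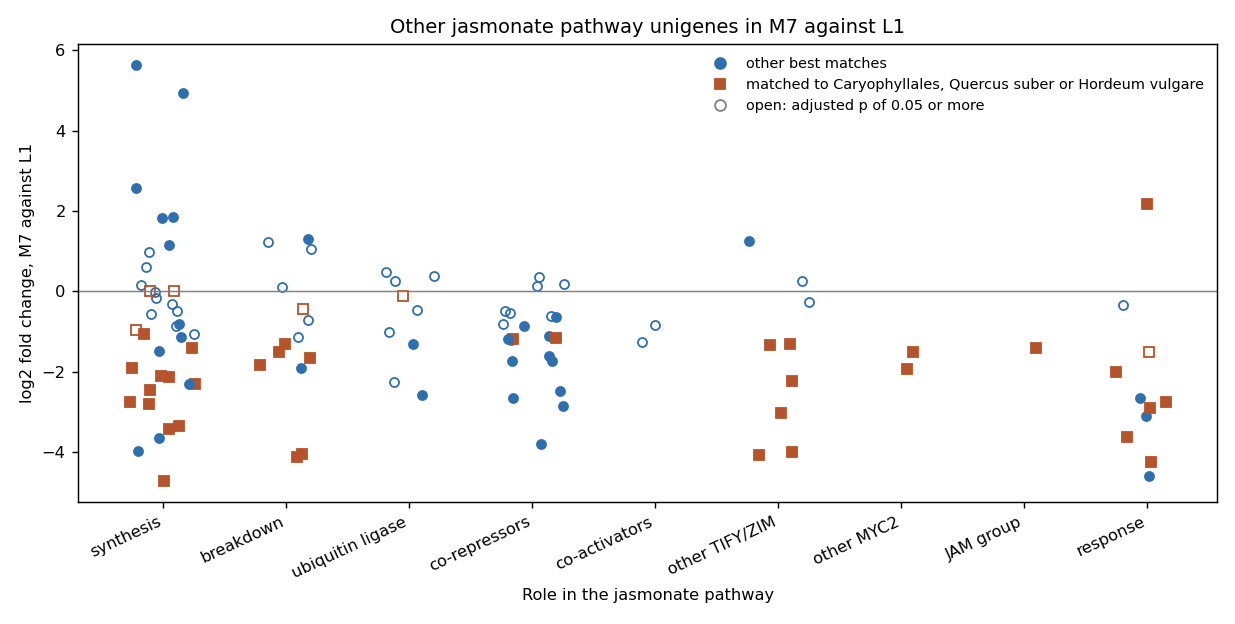
log2 fold change in M7 against L1 of 106 other unigenes with jasmonate pathway names, by role, from limma on log2(FPKM + 1). Squares have their best match in Caryophyllales, Quercus suber or Hordeum vulgare, and open symbols have an adjusted p of 0.05 or more. Synthesis holds the highest points, at 5.64 and 4.94, while no co-repressor passed in the upward direction.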

How the data were processed

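RNA-Seq of 9 D. asperoides root libraries was used, 3 biological replicates per stage. Per the authors, read quality was examined in FastQC and trimming done in fastx_toolkit. Trinity built the assembly, RSEM gave unigene levels and Blastx against NR gave the names. The methods name both TPM and FPKM for these values. The deposited values are called FPKM here. The authors' stage means equal the mean of the 3 libraries within 0.01 for 196605 of 196605 values. The table holds part of the assembly, and other unigenes were not analysed here.

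The 34925 unigenes that reached 1 FPKM in 3 or more libraries were fitted as log2(FPKM + 1) with limma 3.58.1 in R 4.3.3, with a mean per stage, all 9 libraries in the fit, a trend in the variance and no replicate block. The two-sided p values were adjusted (Benjamini-Hochberg) across every unigene tested in a contrast. They measure only the spread between these samples. All 7 members passed the filter. A unigene that reached 1 FPKM only in the libraries of 1 stage could be called in only 1 direction against that stage. The paper gives no test for its DEGs, and its thresholds were used, with the FPKM maximum read as the highest stage mean. No exact permutation test was run, since 3 against 3 libraries cannot go below p = 0.1. The script was tested on simulated data.

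Members, lists and comparisons were chosen with earlier results of these data known. Besides the members, the text names all other TIFY, ZIM-type and MYC2 unigenes, up to 4 unigenes per role with a stage mean over 30 FPKM by highest mean over all libraries, and examples of the 3 unigenes most like each member by Pearson r. A cytochrome P450 94A2-like unigene and some further co-repressor unigenes, all below 30 FPKM in every stage mean, are also named. The words JAZ and SCARECROW in the lists were adjusted, and the match groups formed, after the data were seen. Alternatives were pseudocounts of 0.1 and 5, no filter and a filter of 5 FPKM, median ratio rescaling, quantile normalization, no variance trend, only the stages compared, a replicate block, the highest single library in place of the stage mean, and each library left out. Primers were copied from the study's primer list and aligned without gaps.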

Additional observations from a re-analysis of the deposited data

How the results depend on the processing

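Of the 21 fold changes of the members, each under 18 alternatives, 14 values moved by more than the spread within stages, most under median ratio rescaling or quantile normalization, and 0 of those meeting the threshold changed sign. Of the 42 rescaled stage means of the members, 23 moved by more than their SD. A filter of 5 FPKM in 3 libraries, which tests fewer unigenes, lowered the unigenes called to 3952, 8335 and 9713 in L2 against L1, M7 against L1 and M7 against L2, from 14298, 15539 and 21060, and the pathway unigenes called to 16, 34 and 37, from 47, 66 and 70. Without the 3 match groups of the text (Caryophyllales, Quercus suber and Hordeum vulgare), an alternative chosen after seeing the data, the pathway unigenes called were 18, 29 and 37, with fewer tested. Leaving out 1 library gave 12354 to 15968, 13697 to 15794 and 18608 to 21990 unigenes called, 350 to 533, 1556 to 2029 and 1523 to 2039 DEGs, and 37 to 52, 59 to 72 and 63 to 77 pathway unigenes. Quantile normalization moved the unigenes called from 9128 higher and 5170 lower to 7390 and 7169 in L2 against L1, from 3271 and 12268 to 7694 and 8690 in M7 against L1 and from 2691 and 18369 to 7582 and 8771 in M7 against L2, where median ratio rescaling gave 4973 and 15614. Rescaling moved the DEGs in M7 against L1 from 492 higher and 1304 lower to 1000 and 873 (median ratio) or 576 and 941 (quantile), and in M7 against L2 from 351 and 1447 to 956 and 797 or 480 and 985. In L2 against L1 they went from 303 and 130 to 202 and 157 or 316 and 182. The cause was not tested.

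Replicate numbers gave no sign of pairing: the deviations of same-numbered libraries correlated at -0.053 to 0.053, and 0 of 9 pairs were over 0.1. Differently numbered libraries correlated at -0.076 to 0.079, and 3 libraries per stage are too few to settle whether samples were paired. A replicate block gave 13714, 14961 and 20715 unigenes called, 429, 1799 and 1803 DEGs and 44, 63 and 66 pathway unigenes, and left the number of members meeting the threshold at 1, 6 and 6. FPKM carries no read counts, so counting error could not be assessed.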
